A study of Rattus norvegicus with 5 samples.

Results

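Gene expression in rat cerebellar granule cells that had spent 5 days in culture with ICRF-193 (D5+) was set directly against that of cells after 1 day in culture (D1). Signals of the D5+ and D1 Affymetrix arrays, 1 array each, were compared for 10670 of the 14217 genes on the array. The other 3547 genes lay under the 40th percentile of both arrays and were set aside. A second measurement came from 2 two-colour arrays. On one, D5 cells without inhibitor (Cy5) were hybridized against D1 cells (Cy3), and on the other D5 cells (Cy5) against D5+ cells (Cy3), so that the difference of the log ratios of a probe gives D5+ over D1 and D5 drops out. The Affymetrix comparison uses neither the D5 array nor D5 cells. The series holds 5 samples, and D5 signals are given below only beside the other 2 arrays.

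All cells came from the cerebellum of Wistar rats 8 days after birth and were grown with 25 mM KCl, which keeps granule cells depolarized, and 10 µM cytosine arabinoside, which suppresses dividing glia. Cytosine arabinoside entered with a medium change late on the first day, so D1 cells had met it for a shorter time. D1 cells were harvested at culture day 1 without inhibitor, D5 cells at day 5 without inhibitor, and D5+ cells at day 5 after daily additions of 10 µM ICRF-193. D5+ therefore differed from D1 both by 4 further days of culture and by the inhibitor, and their parts cannot be told apart in this comparison. How many animals stood behind each RNA is not given in the sources used here. With 1 array per condition no difference has a replicate check and no p-value was computed.

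Cerebellar granule cells are small glutamatergic neurons. After birth their progenitors divide in the outer layer of the cerebellum under the control of sonic hedgehog, then leave the cell cycle, extend parallel fibers, migrate inward and acquire the receptors and channels of the mature cell, among them GABA-A receptors with an α6 subunit. Topo II passes one DNA duplex through another. The α form serves dividing cells and the β form is the one that neurons keep after they stop dividing. ICRF-193 holds topo II as a closed clamp on DNA and acts on both forms.

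Topo IIβ mRNA (Top2b) had a signal of 1388.2 on D1 against 900.5 on D5 and 933.8 on D5+, a log2 D5+/D1 of -0.57. Topo I mRNA (Top1) had signals of 596.3, 317.6 and 358.2 on the same arrays, and wherever 3 signals stand without labels they follow this order (D1, D5, D5+). Top2a, which encodes topo IIα, had 271.8 (D1), 62.1 (D5) and 31.4 (D5+), and was 8.66-fold lower on D5+ than on D1. Of the 3 topoisomerase genes only Top2a passed 2-fold. The arrays measure mRNA and not the enzyme that the inhibitor acts on. By immunoblotting, the study found that ICRF-193 also lowers the amount of topo IIβ protein, through its degradation.

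Between D1 and D5+, 595 genes were at least 2-fold higher on D5+ and 1326 at least 2-fold lower, that is 5.58% and 12.4% of the genes compared, or 18% in either direction. Signals under the 40th percentile of their array (19.2 on D1, 16.3 on D5+) were raised to it first, and a fold that rests on such a signal is a lower bound, written as "at least". Such bounds made up 125 of the higher and 210 of the lower genes. Changes of 4-fold or more were found for 128 higher and 241 lower genes, and of 8-fold or more for 29 and 44. The D5+ array was dimmer as a whole, with a median log2 D5+/D1 of -0.31 over all genes compared. When the arrays were scaled to a common median over all probe sets, 837 genes were higher and 810 lower. With the median of probe sets above the floor the split was 919 to 722, and with quantile normalization 883 to 737. The excess of lower genes is thus not independent of the scaling, and list medians below are to be read against -0.31.

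No spread between cultures or arrays could be measured. The nearest measure of error is the scatter between different probe sets of a gene, whose SD on the log2 scale was 0.49 for signals of 20 to 50, 0.34 for 50 to 200, 0.25 for 200 to 1000 and 0.31 above 1000. Any variation of the culture or the RNA is left out of it. Where a called gene had further probe sets above the floor, these all had the same sign for 352 of 360 lower genes and for 167 of 198 higher genes.

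**Figure D1:**
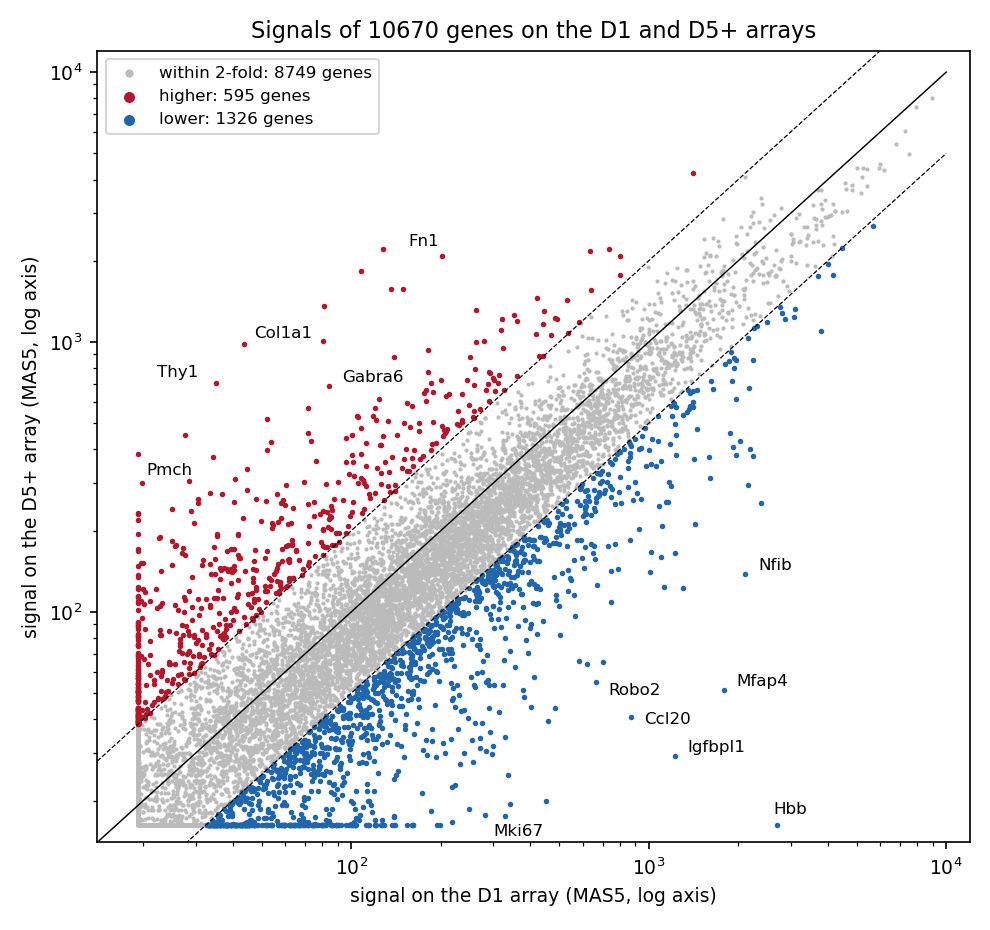
Signal of each of the 10670 genes on the D1 array (x) and the D5+ array (y), both on log axes and raised to the floor of the array, with 1 array per condition; dashed lines mark 2-fold. The 595 higher genes are red and the 1326 lower genes blue, and points along the left and lower edges are bounds.

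The genes farthest above the line were mostly those of collagen, other matrix and contractile proteins. Col1a1, a chain of type I collagen, had a signal of 43.6 on D1 against 306.7 on D5 and 982.1 on D5+, and was 22.5-fold higher on D5+ than on D1. It had the highest ratio among genes above the floor on both arrays. Thy1, a surface glycoprotein of neurons and fibroblasts, had signals of 35, 338.5 and 702.9 and was 20.1-fold higher. The 15 highest genes of this kind ranged from 3.27 to 4.49 on the log2 scale, and all 12 of them with two-colour data were above 0 there as well. Besides matrix genes they included Necab2, a calcium-binding protein of neurons (19.8 on D1, 258.9 on D5, 299.6 on D5+), and Plppr4, a neuronal membrane protein also called PRG-1 (80.6, 1262.6 and 1012.5).

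At the other end, Igfbpl1, known from newly formed neurons, had signals of 1222.6 (D1), 18.2 (D5) and 29.2 (D5+), and was 41.9-fold lower on D5+ than on D1. Mfap4, a microfibril-associated protein, had 1788.4, 152.8 and 51.4 and was 34.8-fold lower. The 15 lowest genes above the floor on both arrays lay between -5.39 and -3.43 on the log2 scale. All 11 of them with two-colour data were below 0. Among bounds, the β-globin gene Hbb had 2708.3 on D1 against 4.1 on D5 and 4.8 on D5+, at least 166-fold lower, and the α-globin gene Hba-a3 had 154.6, 2.2 and 2.3. Globin mRNA belongs to red blood cells and their precursors, and globin copies of near-identical sequence share probes. The highest bound was that of Pmch, the precursor of melanin-concentrating hormone, with 9.2 (D1), 10.7 (D5) and 383.2 (D5+), a log2 D5+/D1 of at least 4.32. Pmch was under the floor on both Affymetrix arrays without inhibitor, but its two-colour log ratio of D5 over D1 was 1.91, so the platforms differ on untreated D5 cells.

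The two-colour arrays gave the same comparison for 6967 genes. Across these genes the log ratios correlated with the Affymetrix log2 D5+/D1 at Pearson's r = 0.61 and Spearman's rho = 0.63, a description across genes, which are not independent replicates and whose probes were read from the same kinds of culture. Of the genes higher on D5+ by Affymetrix, 363 of 407 (89.2%) were above 0 on the two-colour arrays, where 49.8% of all genes were. Of the lower genes 770 of 876 (87.9%) were below 0, against 50.2% of all. The share above 0 went with the size of the fold. It was 100% of the 18 genes at least 8-fold higher, 93.1% of 72 between 4- and 8-fold and 87.7% of 317 between 2- and 4-fold, and on the lower side 3.57% of 28, 8.09% of 136 and 13.2% of 712. The log base of the two-colour values is not stated, so their sizes are not read as folds.

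**Figure D2:**
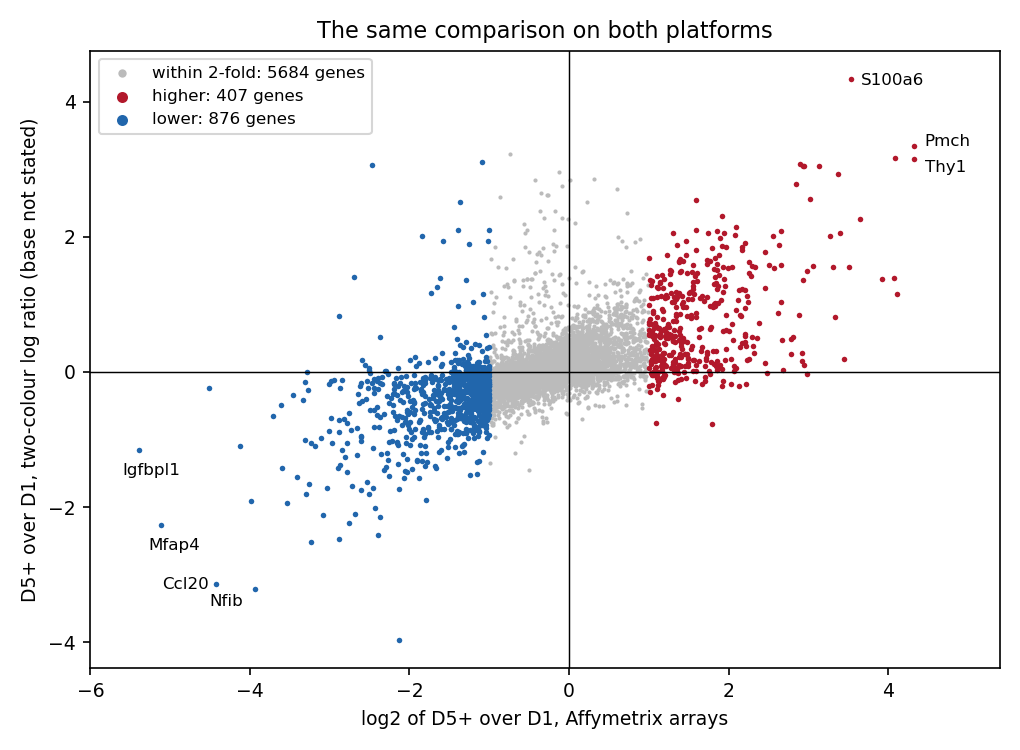
Log2 D5+/D1 from the Affymetrix arrays (x) against the two-colour log ratio of D5+ over D1 (y, log base not stated) for 6967 genes, each a point. Most of the 407 higher genes (red) lie above 0 and most of the 876 lower genes (blue) below 0, with 44 and 106 exceptions.

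Genes of cell division were mostly lower. Of 62 listed genes 55 were expressed, that is above the floor on D1 or D5+, and 46 of them were at least 2-fold lower on D5+ and 0 higher, with a median log2 D5+/D1 of -2.02 against -0.31 for all genes. Under the 3 other scalings the median stayed between -1.79 and -1.72 and 40 to 42 were lower. With the floor at the 60th percentile the median was -1.19 and 26 of 49 were lower. Mki67, the proliferation marker Ki-67, had 280.8 on D1 against 73.3 on D5 and 17.7 on D5+, 15.9-fold lower on D5+ than on D1. Prc1, which bundles microtubules of the spindle midzone, had 299.3, 123.4 and 31.8. Ccnb1, the cyclin of mitotic entry, had 284.4, 81.4 and 30.5, and Ccna2, the cyclin of S and G2 phase, had 159.7, 64.4 and 11.5, at least 9.80-fold lower. For each of these 4 genes D1 was highest, D5 intermediate and D5+ lowest. On the two-colour arrays 39 of 42 list members were below 0. The same list had a median log2 of -1.36 on D5 over D1 and -0.63 on D5+ over D5, values that share arrays with the main comparison and with each other.

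Many promoters of mitotic genes hold 2 short elements, the CCAAT box, bound by the activator NF-Y, and the cell cycle genes homology region (CHR), through which these genes are known to be repressed outside the cell cycle. The CCAAT box (CCAAT) was found on either strand in 74.4% of the 39 RefSeq promoters (250 bases before to 50 bases after the transcription start, GRCr8) available for lower members of the list, and in 38.1% of 8904 promoters of all genes compared. The CHR (TTTGAA, either strand) was found in 46.2% of them, and in 982 of the 8904. Both elements were in 15 of the 39 (38.5%), against 4.60% of all, 7.84% of all lower genes and 1.76% of all higher genes. The list was chosen as genes of cell division, whose promoters are known for these elements, and most of its expressed members were lower. The shares thus describe the list, and a link to the change on D5+ was not tested. Such matches are of letters and no evidence that a factor was bound. Promoters of 3 genes with both are printed to show where the elements lie, 5′ to 3′ along the gene, with CCAAT and CHR matches in capitals:
Mki67 (chr1:199952544-199952843, GRCr8, minus strand): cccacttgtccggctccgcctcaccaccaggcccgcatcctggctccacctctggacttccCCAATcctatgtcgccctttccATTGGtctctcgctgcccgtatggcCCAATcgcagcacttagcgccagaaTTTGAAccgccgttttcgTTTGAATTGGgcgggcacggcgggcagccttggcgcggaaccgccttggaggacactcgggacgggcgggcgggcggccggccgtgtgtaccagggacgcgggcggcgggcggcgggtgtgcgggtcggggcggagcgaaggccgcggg
Prc1 (chr1:143659231-143659530, GRCr8, plus strand): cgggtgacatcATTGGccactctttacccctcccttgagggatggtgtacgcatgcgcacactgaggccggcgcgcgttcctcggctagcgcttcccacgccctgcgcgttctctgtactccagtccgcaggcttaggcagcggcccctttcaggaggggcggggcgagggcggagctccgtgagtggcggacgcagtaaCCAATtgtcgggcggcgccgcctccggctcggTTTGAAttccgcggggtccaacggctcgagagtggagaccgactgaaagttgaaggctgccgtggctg
Nusap1 (chr3:127057045-127057344, GRCr8, plus strand): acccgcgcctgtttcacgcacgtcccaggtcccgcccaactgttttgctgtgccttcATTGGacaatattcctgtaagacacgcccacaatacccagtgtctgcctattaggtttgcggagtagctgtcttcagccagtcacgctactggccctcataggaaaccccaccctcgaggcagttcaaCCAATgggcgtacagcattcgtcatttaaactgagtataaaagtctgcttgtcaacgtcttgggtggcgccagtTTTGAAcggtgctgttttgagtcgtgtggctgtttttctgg

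In Mki67 the CHR matches start 117 and 99 bases before the transcription start, with CCAAT matches that start 189, 167, 142 and 94 bases before it, the last of which shares a base with a CHR match. In Prc1 a CHR match starts 18 bases before the start and the nearer CCAAT match 50 bases before it. Nusap1, a spindle microtubule protein, has its CHR match 10 bases after the start and its nearer CCAAT match 65 bases before it. Its signals were 256.8 (D1), 61.1 (D5) and 27.9 (D5+), a log2 D5+/D1 of -3.20.

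Markers of granule cell progenitors were lower too, with exceptions. Of 14 expressed genes of the progenitor and sonic hedgehog list 8 were lower and 0 higher, with a median of -1.09 (-0.86 to -0.79 and 6 lower, 1 higher under the other scalings). Among 12 expressed genes, 5 were lower at a 60th percentile floor, where the median was -0.74. Mycn, a target of sonic hedgehog that drives progenitor division, had 341.4 on D1 against 33.3 on D5 and 19.5 on D5+, 17.5-fold lower on D5+ than on D1. Gli2, a transcription factor of the pathway, had 89.7, 18.5 and 22.1. Meis1, a homeobox factor of granule cell progenitors and young granule cells, had 1881.7 (D1), 1228.6 (D5) and 462.2 (D5+), 4.07-fold lower. Members within 2-fold included the granule lineage factors Zic1 (457.1, 184.1 and 312.0) and Zic4 (728.1, 466.4 and 939.6). The pathway target Gli1 was under the floor on all arrays.

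Genes of newly formed neurons were lower in 18 of 31 cases and higher in 0, with a median of -1.29 (-1.06 at its lowest, with 15 to 17 lower and 1 higher, under the other scalings). Beside Igfbpl1 they included Draxin, an axon guidance protein, with 704.5 on D1 against 24.4 on D5 and 65.5 on D5+, 10.8-fold lower on D5+ than on D1. Islr2, a neuronal leucine-rich repeat protein, had 271.4, 13.4 and 34.0, and Cntn2, the adhesion molecule TAG-1 of parallel fibers, had 290.1, 43.5 and 53.6. Dcx, doublecortin, had 2169.7 (D1), 322.2 (D5) and 677.1 (D5+), 3.20-fold lower. Sox11, a transcription factor of young neurons, had 612.5, 30.3 and 173.8, and Cd24 had 1603.2, 133.0 and 312.6. In these last 3 genes, named after their values were seen, the D5+ signal lay between those of D5 and D1. On the two-colour arrays 16 of 21 members of the list were below 0.

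Genes that mark mature granule cells split both ways. Of 19 expressed, 10 were higher and 6 lower, with a median of 1.14 (1.37 to 1.44, with 10 higher and 3 to 4 lower, under the other scalings, and 0.66 with the floor at the 60th percentile), and 15 of the 15 called genes with two-colour data had the same sign there. Gabra6, the α6 subunit of the GABA-A receptor and the classic marker of the mature cell, had 84.5 on D1 against 962.7 on D5 and 686.4 on D5+, 8.12-fold higher on D5+ than on D1. Grm4, the metabotropic glutamate receptor mGluR4 of parallel fibers, had 14.7, 186.4 and 194.3, at least 10.1-fold higher. Slc12a5, the chloride extruder KCC2, had 25.0 (D1), 200.6 (D5) and 183.7 (D5+), 7.35-fold higher. Fat2, a giant cadherin of parallel fibers, had 75.9, 393.2 and 363.2. For these 4 genes the D1 array lay apart from both day 5 arrays, which were within 2-fold of each other.

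The lower members of the same list were largely transcription factors and neuronal proteins already well expressed at D1. Nfia, a nuclear factor I protein that controls granule cell maturation, had 1226.6 on D1 against 237.2 on D5 and 165.6 on D5+, 7.41-fold lower on D5+ than on D1. Its relative Nfib, outside the list, had 2114.7, 819.4 and 138.0 and was 15.3-fold lower, and Nfix had 1201.9, 648.2 and 532.9. Rbfox3, the splicing factor known as NeuN, had 501.4, 78.8 and 82.4 and was 6.08-fold lower. All of these were highest on D1. Neurod1, a basic helix-loop-helix factor of granule neurons named after its value was seen, had 5653.8, 3072.2 and 2687.0, 2.10-fold lower.

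Among 8 expressed GABA-A receptor subunits 5 were higher, 1 was lower and the median was 1.39 (1.62 to 1.68 under the other scalings). With the floor at the 20th percentile 12 subunits were counted, 5 higher and 2 lower, and the median was 0.32. The δ subunit Gabrd, partner of α6 outside synapses, had 15.9 (D1), 452.5 (D5) and 148.0 (D5+), at least 7.71-fold higher on D5+ than on D1. Gabra4 had 40.3, 322.4 and 143.2, and Gabrb2 had 137.3, 802.4 and 376.0. Gabra2, a subunit of immature granule cells, had 74.8, 20.5 and 12.5 and was at least 4.59-fold lower. Gabra5 was within 2-fold of D1 on D5+, with 12.9 on D1 against 216.7 on D5 and 20.1 on D5+. For Gabrd, Gabra4 and Gabrb2, D5+ lay between D1 and D5.

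Glutamate receptor subunits did not move as one. Of 12 expressed ionotropic genes 2 were higher and 4 lower, against 5.58% and 12.4% of all genes. Under the other scalings 2 were higher and 2 to 3 lower. Grin1, the obligatory NMDA receptor subunit, had 51.3 (D1), 124.6 (D5) and 119.9 (D5+), 2.34-fold higher on D5+ than on D1. Grin2c, the NMDA subunit of mature granule cells, had 15.6, 36.2 and 50.5, at least 2.63-fold higher, a call that rests on signals near the floor and turned to a log2 of -0.16 with the floor at the 60th percentile. Grik2, a kainate receptor subunit, had 329.2 on D1 against 188.0 on D5 and 17.5 on D5+, 18.8-fold lower, and Gria4, an AMPA receptor subunit, had 193.3, 149.2 and 29.1. For Grik2 and Gria4 the D5+ array alone was low.

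Genes of synaptic vesicles and transmitter release were higher in 9 of 39 cases and lower in 2, with a median of 0.41 (0.64 to 0.70, with 12 to 13 higher and 1 lower, under the other scalings). Rab3b, a vesicle GTPase, had 22.7 (D1), 242.4 (D5) and 189.7 (D5+), 8.36-fold higher on D5+ than on D1. Dnm1, the dynamin of vesicle recycling, had 104.4, 820.6 and 531.2. The vesicular glutamate transporters are of interest as a pair. Slc17a7 (VGLUT1), named after its value was seen, had 290.7, 1369.3 and 774.0, whereas Slc17a6 (VGLUT2) had 63.5 on D1 against 7.5 on D5 and 242.4 on D5+, 3.82-fold higher on D5+ than on D1. Slc17a6 was thus under the floor only on D5. The calcium sensor of release Syt1 had 362.8, 390.4 and 89.0, 4.08-fold lower, and was low only on D5+.

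Among ion channels the directions were mixed, with 6 potassium channel genes higher and 7 lower of 39, and 5 sodium and calcium channel or pump genes higher and 4 lower of 26. The lower shares, 17.9% and 15.4%, are near the 12.4% of all genes. The higher genes, 6 of 39 and 5 of 26, made up larger shares than the 5.58% of all genes. Under the other scalings 9 potassium channel genes were higher and 3 to 6 lower, and 6 of the sodium and calcium genes were higher and 2 to 3 lower. Scn2a, a sodium channel of axons, had 34.8 (D1), 235.0 (D5) and 156.5 (D5+), 4.50-fold higher on D5+ than on D1. Atp2b3, a plasma membrane calcium pump, had 118.8, 483.2 and 532.9. Kcnj3 and Kcnj6, which form G-protein-gated potassium channels, were lower, the first with 355.8, 565.6 and 62.6 and the second with 1108.0, 403.1 and 208.3. The two-colour difference of Kcnj3 was 0.02, at the 55th percentile, so the platforms differ on this gene. That of Kcnj6 was -0.13, at the 25.9th percentile. Kcnd2, the A-type channel Kv4.2 of granule cells, had 544.2 on D1 against 1559.0 on D5 and 227.4 on D5+, 2.39-fold lower on D5+ than on D1.

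Kcnd2 belongs to 22 genes in the tiled regions of the study that it had grouped on these arrays as induced at day 5 and sensitive to the inhibitor, so the choice of this list is not independent of the D1 and D5+ signals. Of its 15 expressed genes 5 were higher on D5+ than on D1, 1 was lower and 9 were within 2-fold, with a median of 0.14 (0.38 to 0.44, with 6 higher and 0 to 1 lower, under the other scalings). Itpr1, the inositol trisphosphate receptor, had 201.4 (D1), 1436.1 (D5) and 489.9 (D5+), 2.43-fold higher on D5+ than on D1. Dab1, the adaptor of reelin signaling, had 38.6, 385.7 and 142.1, 3.68-fold higher. Adam19 had 55.8, 115.4 and 141.8 and Cdh11 had 72.1, 177.1 and 207.6, so neither was lower on D5+ than on D5. The study placed a gene in this group if any of its probe sets qualified, whereas the brightest probe set was used here.

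Genes of neuronal adhesion were lower in 11 of 39 cases and higher in 2, with a median of -0.61 (7 to 8 lower and 3 higher under the other scalings). Genes of axon guidance were lower in 13 of 43 and higher in 2, with a median of -0.32, close to that of all genes. Under the other scalings 8 axon guidance genes were lower and 6 higher. For all genes as deposited the shares were 12.4% lower and 5.58% higher. Robo2, a receptor for the repellent Slit, had 663.6 on D1 against 1423.5 on D5 and 54.8 on D5+, 12.1-fold lower on D5+ than on D1. Nrxn3, a presynaptic neurexin, had 328.5, 809.8 and 34.4 and was 9.55-fold lower. For both the D5 signal was the highest of the 3 and the D5+ signal the lowest. Negr1, an adhesion molecule of the IgLON family, had 252.4, 132.5 and 57.3. Unc5c, a netrin receptor, had 563.4, 171.3 and 96.9, and its ligand Ntn1 had 161.8, 27.1 and 15.3, at least 9.93-fold lower. Cdh22, a cadherin, went the other way with 107.7, 361.5 and 479.0, 4.45-fold higher.

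**Figure D3:**
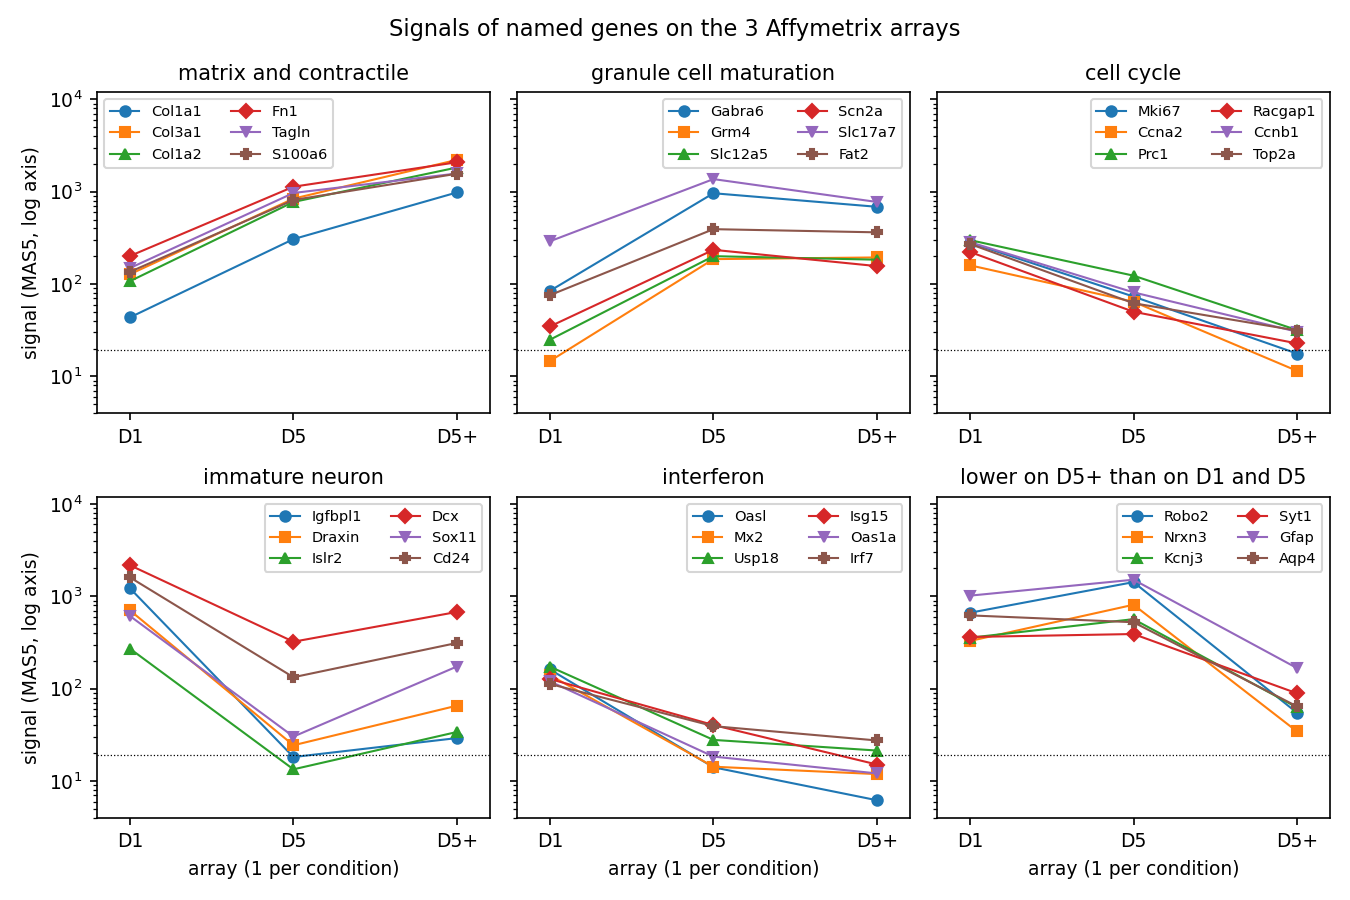
Signals (log axis) of 36 genes on the D1, D5 and D5+ arrays, 1 array per condition and 6 genes per panel; lines join the 3 values of a gene and the dotted line is the highest of the 3 floors, 19.2. Collagen and contractile genes are highest on D5+, cell cycle genes lowest there, and the 6 genes of the last panel are more than 4-fold lower on D5+ than on D1.

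Collagen genes and the enzymes that process them were higher or within 2-fold. Of 36 expressed, 18 were at least 2-fold higher on D5+ than on D1 and 0 lower, with a median of 1.05 (1.28 to 1.34, with 23 higher, under the other scalings). Col3a1 had a signal of 127.8 (D1), 841.1 (D5) and 2212.3 (D5+), 17.3-fold higher on D5+ than on D1. Col1a2 had 107.5, 774.2 and 1827.7, and Col8a1, a short-chain collagen, had 27.7, 311.2 and 453.4. Lox, which crosslinks collagen, had 25.0, 115.0 and 240.7 and was 9.63-fold higher. In all of these D1 was lowest and D5+ highest. The list's 9 called genes with two-colour data were all above 0 there.

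Other matrix genes split. Of 51 expressed, 18 were higher and 7 lower, with a median of 0.67 (0.91 to 0.97 under the other scalings). Fn1, fibronectin, had 201.3 on D1 against 1132.4 on D5 and 2083.7 on D5+, 10.4-fold higher on D5+ than on D1. Postn, periostin, had 139.8, 408.5 and 879.5, and Fbn1, fibrillin-1, had 27.3, 108.2 and 172.4. The lower genes included, with Mfap4, Mgp (matrix Gla protein; 2194.8, 1338.8 and 400.9, 5.47-fold lower) and Reln, the reelin that granule cells secrete (3794.7, 2617.4 and 1099.0, 3.45-fold lower). Mmp9, a matrix protease, had 100.3, 4.6 and 0.6 and was at least 6.15-fold lower.

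The actin and contraction list also holds other genes of spread cells, such as annexins, S100 proteins, vimentin and integrins. Of its 26 genes 16 were higher and 0 lower, with a median of 1.41 (1.64 to 1.72 under the other scalings). Its higher genes included Anxa1, S100a11 and Lgals1, which are not actin or contractile proteins. Tpm2, a tropomyosin, had 80.7 (D1), 655.5 (D5) and 1365.0 (D5+), 16.9-fold higher on D5+ than on D1. Tagln, the smooth muscle protein SM22, had 149.0, 968.6 and 1574.9 and was 10.6-fold higher. S100a6, calcyclin, had 135.6, 813.0 and 1566.1, and its two-colour difference was at the 99.995th percentile of genes on that platform. Acta2, smooth muscle actin, had 175.5, 405.6 and 650.2. Genes of the TGF-β and BMP pathways were higher in 6 of 22 cases and lower in 1. For all genes the shares were 5.58% and 12.4%. The median of this list was 0.31 (0.55 to 0.61, with 7 higher and 0 lower, under the other scalings). Its higher genes included Grem1, a secreted BMP antagonist (52.2, 365.2 and 517.8), and Ltbp2 (9.9, 100.2 and 168.8, at least 8.79-fold higher). Ltbp2 encodes a TGF-β binding protein of the matrix. Inhba, also called higher, had a two-colour difference below 0 (-0.21). The lower gene was Id2 (4479.3, 2165.6 and 2228.8). Id1 and Id3 were within 2-fold at -0.45 and -0.81, and Id4 at 0.05.

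These matrix and contractile genes are features of fibroblasts, mural cells and meninges more than of neurons, so markers of non-neuronal cells are set beside them. Of the endothelial, mural and meningeal list 29 were on the array, 19 were expressed, 8 were higher and 2 lower, and their summed signal was 1026 on D1 against 2615 on D5 and 3825 on D5+. The smooth muscle and mural genes Tagln, Myl9, Cnn1 and Acta2 had the highest log2 ratios in it and belong to the actin and contraction list as well. Their summed signal was 414.1 on D1 and 2928.1 on D5+, and that of the other 15 expressed genes 612 and 897. The 4 higher genes among these 15 were Ptgds (159.7, 354.4 and 370.4), Mcam (30.8, 82.9 and 97.2), Pdgfrb and Des. Eng (54.4, 44.7 and 84.9) and Flt1 were within 2-fold. The endothelial markers Pecam1, Tek, Vwf and Emcn were under the floor on both arrays. Cldn5 was at least 2.34-fold lower, though its two-colour difference was above 0 (0.05). Igf2, a growth factor of meninges and vessels, had 109.6, 13.0 and 18.9 and was 5.80-fold lower. The part of non-neuronal cells in the higher matrix genes was not tested. In RNA from a mixed culture, more cells of a type and more RNA per cell cannot be told apart, and likewise fewer cells and less RNA per cell.

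Astrocyte genes went both ways on D5+. Of 19 expressed, 3 were higher and 6 lower, against 5.58% and 12.4% of all genes. The median of -0.23 became positive under the other scalings (0.01 to 0.09). Summed signals were 8014 (D1), 11152 (D5) and 6925 (D5+). Gfap, the intermediate filament of astrocytes, had 1016.1 on D1 against 1511.9 on D5 and 167.0 on D5+, 6.08-fold lower on D5+ than on D1. Aqp4, the water channel, had 621.3, 523.9 and 64.2 and was 9.68-fold lower, and the glutamate transporter Slc1a3 had 1084.1, 1170.4 and 247.2. S100b, a calcium-binding protein of astrocytes, had 120.8, 339.3 and 512.9, 4.25-fold higher, and Gja1, connexin 43, had 469.2, 921.2 and 1062.8. Gfap, Aqp4 and Slc1a3 were low on D5+ only, and S100b and Gja1 were highest there. On the two-colour arrays Gfap, Aqp4, Slc1a3 and S100b had the same sign as on the Affymetrix arrays. The platforms differed on other called genes. Aldh1l1 and Acsbg1, called lower, were above 0 on the two-colour arrays (1.04 and 0.11), and Fgfr3, called higher, was below 0 (-0.14).

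Oligodendrocyte and microglial markers were mostly within 2-fold, as were most genes compared, of which 18% passed it in either direction. Of 14 oligodendrocyte genes 0 were higher and 3 lower (1 to 3 higher and 2 lower under the other scalings), with summed signals of 3975 (D1), 2381 (D5) and 3886 (D5+). Mbp, myelin basic protein, had 1547.1, 1129.6 and 1807.8. Of 24 microglial genes 2 were higher and 2 lower, with summed signals of 5688, 5756 and 5103. Itgam, the integrin CD11b, had 57.2, 42.0 and 21.6, 2.65-fold lower, and Cd14, the co-receptor for endotoxin, had 295.8, 130.1 and 94.1, 3.14-fold lower. Among markers of other cerebellar neurons 6 of 15 were lower and 1, Gad2 (31.5, 31.2 and 86.1, 2.73-fold), was higher. Pcp2, a Purkinje cell protein, had 103.6, 20.5 and 17.2, and Car8 had 58.7, 24.0 and 24.7. For both, the two-colour difference was above 0, at 0.18 and 1.89. Eomes, a factor of unipolar brush cells, had 245.7, 20.4 and 83.2. The two-colour differences of Eomes, Pcp4 and Sst, also lower, were below 0.

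**Figure D4:**
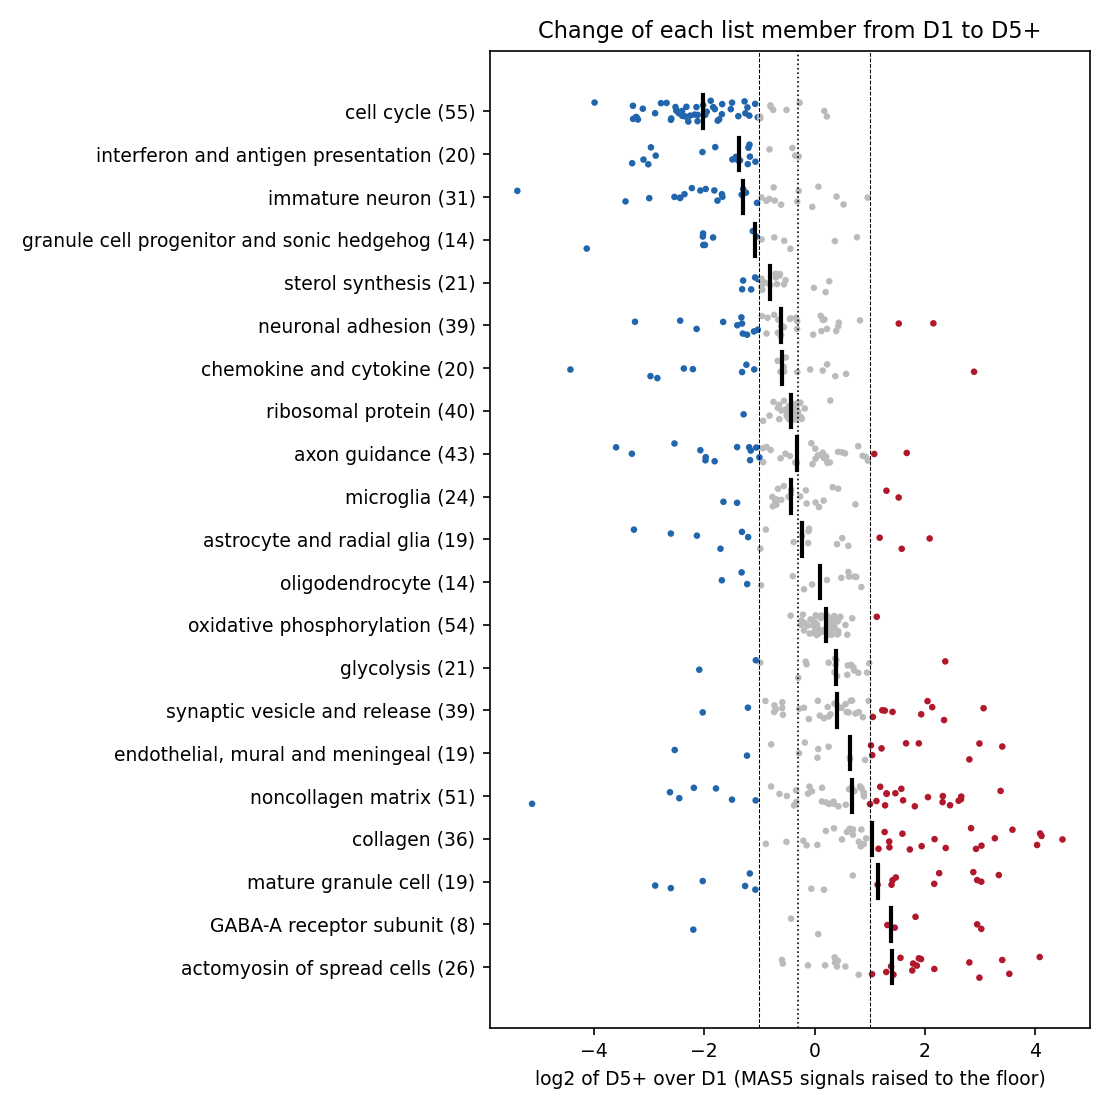
Log2 D5+/D1 of each expressed member (points; red at least 2-fold higher, blue at least 2-fold lower) of 21 gene lists, with the number expressed in brackets and the list's median as a black bar; the dotted line is the median of all genes, -0.31, and the dashed lines are 2-fold. Cell cycle genes have the lowest of these medians and the actin and contraction list the highest.

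Genes induced by interferon were lower as a group. All 20 expressed genes of the interferon and antigen presentation list were below 0 with the signals as deposited, 16 of them past 2-fold, with a median of -1.37. Under the other scalings the median was -1.14 to -1.07 and 11 were lower. Oasl, an oligoadenylate synthetase-like protein, had 161.3 on D1 against 14.1 on D5 and 6.2 on D5+, at least 9.90-fold lower on D5+ than on D1. Mx2, an antiviral GTPase with a close relative in Mx1, had 139.9, 14.3 and 11.9, and Usp18, which removes the ubiquitin-like protein ISG15, had 172.9, 27.9 and 21.4 and was 8.08-fold lower. Isg15 itself had 127.4, 40.4 and 15.1. D1 was the highest array for all 4. Of the 13 lower genes with two-colour data 10 were below 0 there. The exceptions, named after their values were seen, were Ifi27, Tap1 and, by a narrow margin, Psmb10.

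An element through which interferon acts is the interferon-stimulated response element (GAAA, any 2 bases, GAAA, on either strand). It was found in 8 of 13 promoters (61.5%) of the lower genes of the list. The share was 2.84% for all promoters, 5.47% for all lower genes and 2.42% for all higher genes. Because the list was chosen as interferon-induced genes, its share describes the list. Whether the element bears on the change on D5+ was not tested, and members that were not lower were not searched as a set. This motif was added after the values had been seen. A pair of these promoters shows its place, again with matches in capitals:
Oas1a (chr12:41330216-41330515, GRCr8, plus strand): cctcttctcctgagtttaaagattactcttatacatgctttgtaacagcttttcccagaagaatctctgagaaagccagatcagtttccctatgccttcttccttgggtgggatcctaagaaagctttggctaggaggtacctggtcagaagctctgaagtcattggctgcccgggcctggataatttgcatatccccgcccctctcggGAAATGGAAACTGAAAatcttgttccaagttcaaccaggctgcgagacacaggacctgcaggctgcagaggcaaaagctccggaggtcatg
Irf7 (chr1:205799974-205800273, GRCr8, minus strand): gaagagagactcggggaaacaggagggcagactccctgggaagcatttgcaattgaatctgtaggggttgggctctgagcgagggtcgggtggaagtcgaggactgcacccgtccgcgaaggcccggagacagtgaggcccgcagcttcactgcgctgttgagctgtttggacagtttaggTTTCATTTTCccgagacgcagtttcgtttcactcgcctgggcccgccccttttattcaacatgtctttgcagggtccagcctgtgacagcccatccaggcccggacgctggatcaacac

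Oas1a, an oligoadenylate synthetase, holds overlapping matches that start 41 and 35 bases before the transcription start. Its signals were 119.9 (D1), 18.4 (D5) and 12.1 (D5+), at least 7.36-fold lower on D5+ than on D1. Irf7, a transcription factor of the interferon response, has a match 69 bases before the start and had signals of 112.5, 39.3 and 27.5, 4.09-fold lower.

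Several chemokines were high on D1. Others were not, such as Ccl4 (24.0 on D1) and Cxcl2 (23.4 on D1), and Cxcl12 was within 2-fold (274.1, 729.6 and 407.2). Of 20 expressed chemokine and cytokine genes 8 were lower on D5+ (6 to 7 under the other scalings) and 1 was higher. Their median was -0.59. Among all genes 12.4% were lower and 5.58% higher. Ccl20 had 874.7 on D1 against 175.0 on D5 and 40.7 on D5+, 21.5-fold lower on D5+ than on D1. Ccl2 had 1964.0, 769.9 and 380.0 and Cxcl1 had 1010.9, 233.8 and 140.2. All 3 encode proteins that attract leukocytes, and in all 3 D1 was highest and D5+ lowest on the Affymetrix arrays. On the two-colour arrays the log ratio of D5 over D1 for Cxcl1 was above 0 (0.15), and its difference for D5+ over D1 was -0.12. Tgfb3, transforming growth factor β3, had 36.9, 180.1 and 273.7 and was 7.42-fold higher.

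Genes of energy metabolism lay above the median of all genes by small amounts. Of 54 expressed genes of oxidative phosphorylation 1 was higher and 0 lower, with a median of 0.21 (0.44 to 0.52 under the other scalings), and 36 of 37 were above 0 on the two-colour arrays, where 49.8% of all genes were. Glycolytic genes had a median of 0.39, with 1 of 21 higher (4 to 6 under the other scalings), and 18 of 20 were above 0 there. Eno2, the neuronal enolase, had 181.3 (D1), 855.5 (D5) and 936.2 (D5+), 5.16-fold higher on D5+ than on D1. Hk2, a hexokinase of growing cells, had 69.4, 15.0 and 10.4 and was at least 4.26-fold lower. Sterol synthesis genes had a median of -0.80 (-0.57 to -0.50 under the other scalings), with 5 of 21 lower, 1 to 2 lower under the other scalings, and 18 of 20 below 0 on the two-colour arrays. Ribosomal protein genes, with a median of -0.43, stayed within 2-fold in 39 of 40 cases.

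Genes of DNA repair, chromosome structure and the p53 response were examined because topo II acts on DNA. Of 26 expressed topoisomerase and repair genes 0 were higher and 7 lower, with Top2a the lowest, and of 26 genes of cohesin, condensin and the nuclear lamina 0 were higher and 9 lower. Under the other scalings 3 and 6 were lower, and 12.4% of all genes were lower as deposited. The condensin genes Smc2 (120.3, 43.1 and 31.2), Ncaph (112.7, 47.0 and 23.0) and Ncapd2 (101.9, 31.3 and 16.7) were each lower on D5+ than on D1. Lmnb1, lamin B1, had 914.3, 271.5 and 275.8 and was 3.32-fold lower. Of 22 p53 target genes 1 was higher and 4 were lower, shares near the 5.58% and 12.4% of all genes, with a median of -0.17 that became positive under the other scalings (0.07 to 0.13, with 3 higher and 3 to 4 lower). Cdkn1a, the cyclin-dependent kinase inhibitor p21, had 85.2 on D1 against 165.8 on D5 and 203.6 on D5+, 2.39-fold higher on D5+ than on D1. Gadd45a had 773.1, 369.8 and 250.6, 3.08-fold lower, so these 2 targets went opposite ways.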

How the data were processed

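Expression was measured in 5 samples, each on 1 array: D1, D5 and D5+ on Affymetrix Rat 230 2.0 arrays, and D5 against D1 and D5 against D5+ on two-colour arrays. The deposited Affymetrix values are linear signal intensities from GCOS and MAS5 (no version stated). Per the methods, arrays were normalized at the 50th percentile. Medians of the 31042 probe sets nevertheless differed (32.9, 29.2 and 28.0), and no further scaling was applied here. As deposited, the two-colour numbers are log ratios of unstated base and normalization. Array number limits the precision. Samples were grouped by GEO's labels.

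Probe sets under the 40th percentile of both arrays were set aside (10902). A gene took its brightest probe set with 1 symbol (20826 had 1 and 436 several), lower signals were raised to the floor of 19.2 (D1), 16.7 (D5) or 16.3 (D5+), and 2-fold (log2 of 1) made a call. Symbols were checked against a GRCr8 table, and promoters are RefSeq's. Members and lists were chosen with earlier results of these data known. Named genes are the 15 highest and lowest above the floor on both arrays, the 10 highest and lowest bounds, up to 5 called members of each list in each direction, and the topoisomerase genes; any further called gene was named after its value was seen. Calling was tested on simulated data. Other floors, scalings, thresholds and gene summaries were tried, as given in the closing section. Python 3.11.15, numpy 2.4.6, pandas 2.3.3, scipy 1.17.1 and matplotlib 3.10.9 were used.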

Additional observations from a re-analysis of the deposited data

How the results depend on the processing

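The counts of 595 higher and 1326 lower genes, and the higher genes' share of 31.0%, depended on the settings. With the floor at the 60th percentile there were 338 higher and 843 lower genes (28.6% higher). Scaling each array to the all-probe-set median gave 810 lower genes and a share of 50.8%, scaling by the median above the floor 919 higher and 722 lower (56.0%), and quantile normalization 737 lower (54.5%). Unfloored ratios moved the share to 34.5% and an added offset to 28.9%. At 1.5-fold there were 1126 higher and 3211 lower genes (26.0%), at 3-fold 248 and 435 (36.3%), and counting probe sets 1012 and 2466. The two-colour sign matched for 94.2% of higher and 92.6% of lower genes with the floor at the 60th percentile, and stayed within its counting interval under the other alternatives. With that floor, 3 low genes changed sign: Csrp3 to -0.14, Grin2c to -0.16 and Sema5a to -0.26. In each case the cause was not tested. No list median of 1 or more in size changed sign under any alternative run.

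Each condition had 1 array, and the scaling and the floor both move the counts. Genes near the floor have only bounds, and different probe sets of a gene scatter more there. The base, background correction and normalization of the two-colour log ratios are unstated. No paired analysis was possible because each condition had 1 array, and for the same reason leaving out a replicate was not run.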
